A study of Rattus norvegicus with 8 samples.

Results

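The 9 genes described here steer glucose through the liver cell: Pklr, Mlxipl, G6pc1, Pck1, Fbp1, Slc2a2, Ppp1r3b, Gys2 and Pygl. A gene was represented by the probe set whose platform annotation names its symbol alone, and by the brightest one where there were several. This gave 7 of the 9 genes, each with 1 probe set, out of 18166 genes with a probe set, and all 7 were among the 8690 genes whose mean log2 level of at least 5 allowed a test. G6pc1, the catalytic subunit of glucose-6-phosphatase, is named in 9 probe sets that also carry the names of neighbouring genes, and Mlxipl, which encodes ChREBP, was not named in the platform table used here. No value is given for either.

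The liver stores glucose as glycogen and releases it again, burns it through glycolysis or makes it anew from lactate, amino acids and glycerol. Glycogen synthase builds the polymer and glycogen phosphorylase takes it down. Protein phosphatase 1, brought to the glycogen particle by targeting subunits, switches the synthase on and the phosphorylase off. When sugar is plentiful, the transcription factor ChREBP binds with its partner Mlx to carbohydrate response elements of genes for glycolysis and fat synthesis, of which liver pyruvate kinase is the classic case. Fasting signals through glucagon and cyclic AMP raise the enzymes of gluconeogenesis, which are richer in the hepatocytes near the portal vein.

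Male Sprague-Dawley rats, which are outbred, gave the liver RNA after chronic feeding with an ethanol diet or pair-feeding with a carbohydrate diet. The rats of each diet were given AM21, an oligonucleotide with locked nucleic acid (LNA) bases antisense to miR-21, or were left untreated. AM21 was injected into the peritoneum at 7.5 mg/kg, 72 h before partial hepatectomy (PHx) and once more directly after it. Tissue was taken 24 h after 70% PHx and, from the same animals, at the operation itself (0 h). The 4 pools were ethanol-fed AM21, ethanol-fed untreated, pair-fed AM21 and pair-fed untreated, with RNA of 3 animals in an AM21 pool and 4 in an untreated pool. Each pool was measured on 1 array per time, 8 arrays in all, and single animals were not measured. Neither a sham operation nor an oligonucleotide control was analysed here, and the feeding state at sampling is not given in the sources used here. The question behind the study was what miR-21 does during regeneration of the liver in ethanol-fed rats.

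The promoters of Pklr and Pck1 are shown because each holds the DNA element for which the gene is best known. They are the 250 bases before the transcription start, from RefSeq on build GRCr8, where 8 of the 9 genes had an entry (Ppp1r3b had none). Capitals mark the carbohydrate response element of Pklr at chr2:176841014-176841263 (plus strand), which lies 168 to 152 bases before the start. In Pck1, at chr3:182348322-182348571 (plus strand), they mark the cyclic AMP response element, 93 to 86 bases before the start.
Pklr: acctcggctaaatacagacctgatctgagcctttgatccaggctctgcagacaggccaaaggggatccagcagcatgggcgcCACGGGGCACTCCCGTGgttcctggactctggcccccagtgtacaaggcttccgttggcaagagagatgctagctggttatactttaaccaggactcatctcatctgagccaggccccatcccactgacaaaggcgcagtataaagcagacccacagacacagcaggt
Pck1: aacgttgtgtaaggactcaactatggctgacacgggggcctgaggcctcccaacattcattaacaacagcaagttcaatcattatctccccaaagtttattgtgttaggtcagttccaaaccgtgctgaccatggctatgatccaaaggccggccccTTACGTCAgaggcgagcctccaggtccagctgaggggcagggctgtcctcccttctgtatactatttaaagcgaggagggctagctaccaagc

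The Pklr element fits the form CACG, any 9 bases, CGTG, which reads the same on both strands and was found in 53 of 33469 RefSeq promoter windows of that length (0.158%, with several windows for some genes). Among the 9 genes it was in the Pklr window alone. The 8 letters TTACGTCA, on either strand, were in 0.75% of windows and among the 9 genes in that of Pck1 alone. They share their last 6 letters with the full element TGACGTCA, which was in 1.59% of windows and in none of these genes. The plain E-box CACGTG was in 5.59% of windows and in none of them. A match of letters is a description of the sequence and not evidence of binding.

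The first comparison was 24 h after PHx against 0 h. Of the 7 genes, 6 fell and 1, Gys2, did not pass (limma with the pool as a block, Benjamini-Hochberg adjusted p under 0.05 over 8690 genes). Of all tested genes, 12.8% were called lower, 15.3% higher and 28.1% in either direction. Ppp1r3b and Pklr fell furthest, with log2 changes of -2.19 and -1.95, while Slc2a2, Pck1, Fbp1 and Pygl fell by 0.38 to 0.60. The median fitted change of the 7 was -0.48, against 0.01 over all tested genes. In these tissue samples, fewer cells of a type and less RNA per cell cannot be told apart. The change also cannot be told apart from effects of surgery or of the interval between samples.

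Among the glycogen genes, Ppp1r3b encodes a glycogen-targeting subunit of protein phosphatase 1 in liver. At 24 h its log2 level was 7.12, 7.61, 7.01 and 7.13 in the ethanol-fed AM21, ethanol-fed untreated, pair-fed AM21 and pair-fed untreated pools, against 9.30, 9.41, 9.87 and 9.06 at 0 h. All 24 h arrays lay at least 1.45 below all 0 h arrays. The fitted change was -2.19 ± 0.18, a 4.56-fold fall (adjusted p = 0.00136, limma, 4 pools). Here and below, ± after a fitted value gives limma's moderated SE. The pools differed in size, from -1.79 in the ethanol-fed untreated pool to -2.86 in the pair-fed AM21 pool.

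Gys2 is the liver form of glycogen synthase. Its 24 h levels were 8.0, 8.01, 8.14 and 7.82 in the same order of pools, against 7.62, 7.77, 8.36 and 8.79 at 0 h. The 24 h arrays were close together and sat inside the 0 h range, where both ethanol-fed arrays were low and both pair-fed arrays high. The fitted change over all pools was -0.14 ± 0.22 with a 95% interval from -0.66 to 0.38 (adjusted p = 0.671, limma). It was 0.14 without the pair-fed untreated pool. Pygl, liver glycogen phosphorylase, had 9.26, 9.02, 9.0 and 9.08 at 24 h, against 9.73, 9.73, 9.77 and 9.55 at 0 h. Its arrays of the 2 times did not overlap, and it fell by 0.60 ± 0.09, or 1.52-fold (adjusted p = 0.00573, limma). So within glycogen turnover the targeting subunit and the phosphorylase fell at the RNA level, and no change in the synthase was detected over the 4 pools.

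Pklr, the liver pyruvate kinase of the last step of glycolysis, had log2 levels of 7.40, 7.24, 7.74 and 7.14 at 24 h and 9.35, 9.12, 9.72 and 9.14 at 0 h. The groups were at least 1.38 apart. The changes in the 4 pools lay between -1.88 and -2.01, the tightest of the 7 genes. The fitted change was -1.95 ± 0.08, a 3.87-fold fall (adjusted p = 0.00039, limma). A fall of at least 1.5 in every pool was seen in Pklr and Ppp1r3b and in 12 of the 8690 tested genes (0.138%).

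Slc2a2 encodes GLUT2, the hepatocyte's glucose transporter. Its levels were 9.82, 10.02, 10.01 and 9.86 at 24 h, against 10.40, 10.35, 10.51 and 10.35 at 0 h. The times did not overlap, and the gap between them was 0.33. It fell by 0.47 ± 0.09, or 1.39-fold (adjusted p = 0.00936, limma).

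Of the gluconeogenic enzymes, Pck1 (cytosolic phosphoenolpyruvate carboxykinase) had 10.92, 10.86, 10.63 and 10.73 at 24 h, against 11.50, 11.47, 10.90 and 11.19 at 0 h. The 2 times overlapped, because the pair-fed AM21 array at 0 h lay between the 2 ethanol-fed arrays at 24 h. Within every pool the 24 h array was lower, by 0.27 to 0.61, and the fitted change was -0.48 ± 0.09 (adjusted p = 0.0125, limma). The call was lost without the ethanol-fed AM21 pool (adjusted p = 0.0587) and without the ethanol-fed untreated pool (adjusted p = 0.0577). Fbp1, fructose-1,6-bisphosphatase, had 9.73, 9.60, 9.27 and 9.21 at 24 h and 9.92, 9.95, 9.83 and 9.61 at 0 h. Its times overlapped as well, with the ethanol-fed AM21 array at 24 h above the pair-fed untreated array at 0 h. It fell by 0.38 ± 0.09 (adjusted p = 0.0275, limma). This call rested on all 4 pools: leaving out the ethanol-fed AM21, ethanol-fed untreated, pair-fed AM21 or pair-fed untreated pool gave adjusted p of 0.0523, 0.0851, 0.0824 and 0.0722. With no level filter it was 0.0744.

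**Figure D1:**
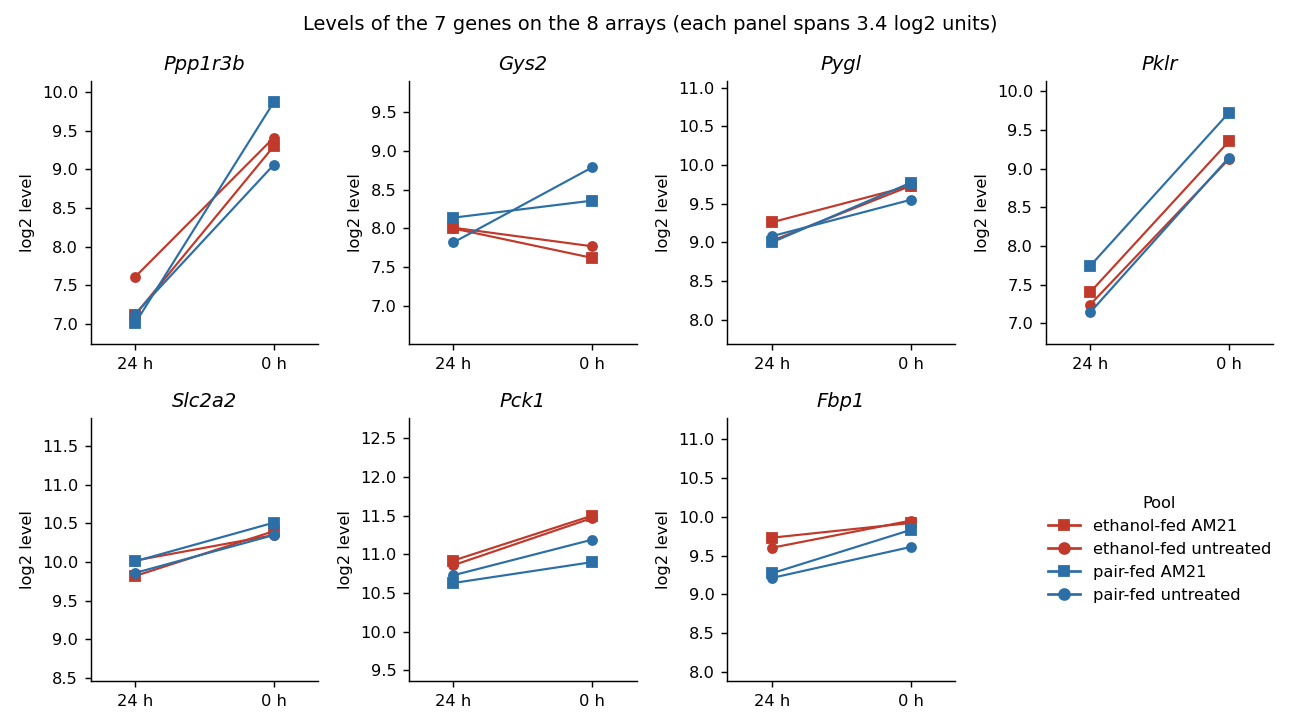
Log2 level (RMA) of the 7 genes on the 8 arrays, 24 h at left and 0 h at right of each panel, with a line for each pool. The panels span equal ranges: Ppp1r3b and Pklr are the steep ones, and Gys2 alone has lines that slope both ways.

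**Figure D2:**
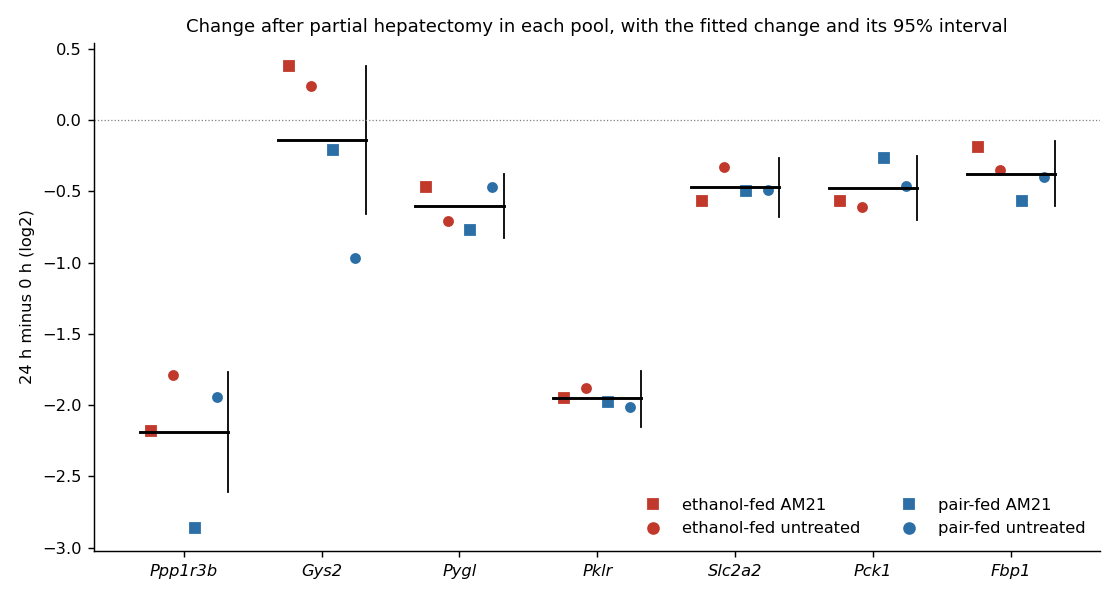
Log2 change from 0 h to 24 h in each of the 4 pools (points), with the limma estimate (horizontal bar) and its 95% interval (vertical line). All points of 6 genes are below 0, and Gys2 has both ethanol-fed pools above 0 and both pair-fed pools below.

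By count, 6 of the 7 genes were lower at 24 h in all 4 pools, as were 22.8% of tested genes, and 4 of the 7 had arrays that did not overlap between the times, as did 13.7% of tested genes on the lower side and 31.1% on either side. The genes tracked each other to different degrees over the 8 arrays. Pearson's r of Pklr was 0.971 with Slc2a2, 0.960 with Ppp1r3b, 0.941 with Pygl, 0.698 with Fbp1, 0.673 with Pck1 and 0.240 with Gys2. These arrays share pools and the time step, so r mostly sets the time step against the rest of the spread. Of all tested genes, those most like Pklr were B2m (r = 0.994), Igfals, which carries IGF in blood (0.988), Thrsp (0.984), Ces2g (0.981) and Cpt1a, which admits fatty acids to mitochondria (0.979), over 8 arrays. B2m, a subunit of MHC class I, followed the shape with changes of only -0.13 to -0.16, and Thrsp, a lipogenic protein responsive to carbohydrate and thyroid hormone, with -1.30 to -1.86.

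The wider pathway was read from 7 lists. Like the genes above, they were chosen with earlier results of these data known, so their counts are a description. In the list of ChREBP partners and literature targets, 13 of 23 tested genes fell and 0 rose, where 12.8% of all tested genes were called lower. Neither partner gene, Mlx nor Mlxip, was among the 13. In all, 22 had a negative estimate, with a median of -0.65 against 0.01 over all tested genes. Rgs16, which dampens signals from G protein-coupled receptors, fell by 3.99 ± 0.19 (adjusted p = 0.00039, limma), Thrsp by 1.59 ± 0.11, the stearoyl-CoA desaturase gene Scd by 1.36 ± 0.12, and Tkfc, the kinase that brings fructose-derived glyceraldehyde into glycolysis, by 1.07 ± 0.09. Chosen after their values were seen, Txnip, which encodes the glucose-induced thioredoxin-binding protein, fell by 0.86 ± 0.11 and the ATP citrate lyase gene Acly by 1.43 ± 0.27. The partner genes Mlx (0.18 ± 0.11) and Mlxip (-0.17 ± 0.12), also picked after the fact, did not pass. The pair-fed untreated pool stood apart most widely in several lipogenic members: Acly changed by -0.34 there and by -1.37 to -2.08 in the other pools, Pnpla3 by 0.13 against -2.11 to -3.11, and Elovl6 by 1.77 against -0.06 to -1.79. Its change was also the highest of the 4 pools in the rest of the list, such as Mid1ip1 (0.23 against -0.54 to -1.19). The exceptions were Mlxip, Txnip, Thrsp, Fgf21, Rgs16, Bhlhe40 and Nr1h3. At 0 h, pair-fed AM21 minus untreated was 1.14, 2.34 and 1.51 for Acly, Pnpla3 and Elovl6. At 24 h it was 0.11, -0.19 and -0.31. Ethanol-fed AM21 minus untreated was 0.13, 0.78 and -1.31 at 0 h. So for Elovl6 the single ethanol-fed untreated array at 0 h also stood apart, on the other side. Without the pair-fed untreated pool 16 of the 23 fell, and without one of the other pools 10 or 11. Pklr showed no such split, with -2.01 in that pool.

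**Figure D3:**
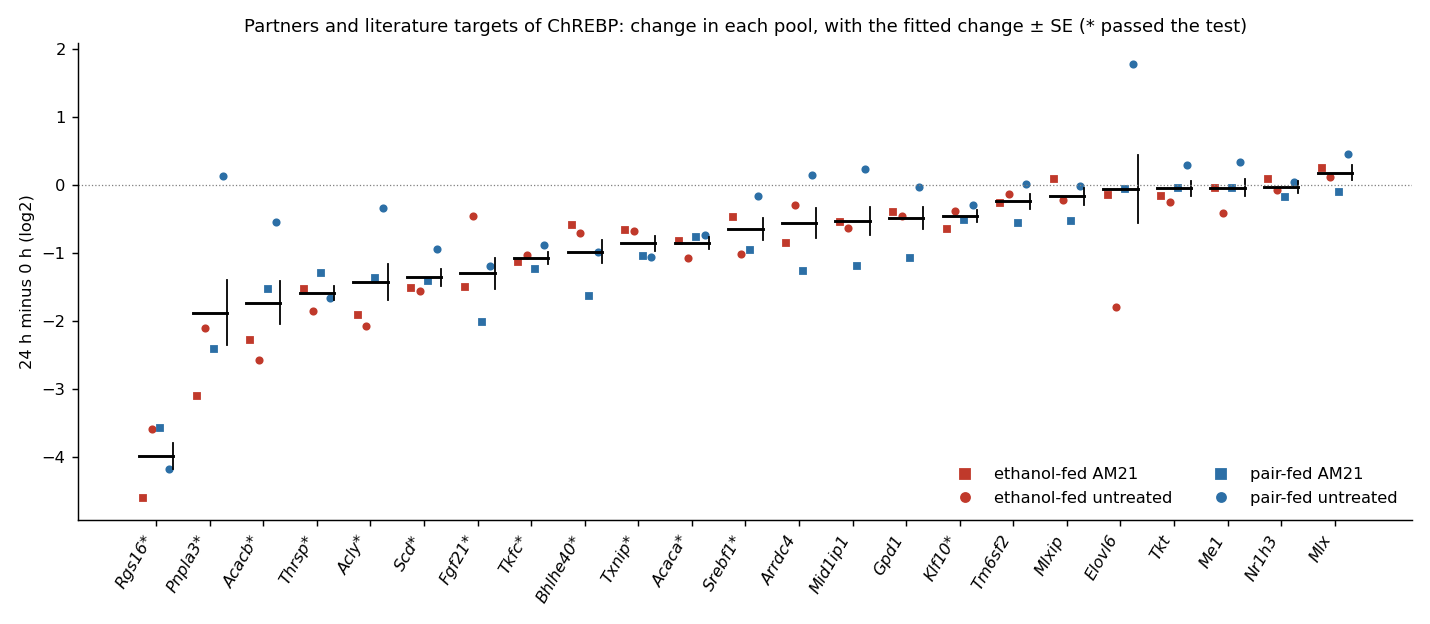
Log2 change from 0 h to 24 h of 23 tested partners and literature targets of ChREBP, ordered by fitted change, with a point per pool and the limma estimate ± SE. The 13 starred genes passed. The pair-fed untreated pool lies above the other pools in Pnpla3, Acacb, Acly and Elovl6, and by less in further genes of the list.

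In glucose phosphorylation and glycolysis, 3 of 9 tested genes fell and 0 rose, with a median of 0.00. Among all tested genes, 12.8% were called lower and 15.3% higher. The 3 that fell were Gpi, the glucose-6-phosphate isomerase (-0.79 ± 0.09), Pfkfb1, the liver enzyme that makes and removes fructose-2,6-bisphosphate (-0.91 ± 0.14), and the ketohexokinase gene Khk (-0.69 ± 0.12). Of the 25 names in this list, 16 were not tested. In gluconeogenesis and its regulators, 6 of 19 fell and 2 rose, with a median of -0.23. The 2 that rose, named here after the fact, were Pck2 (0.49 ± 0.12) and G6pc3 (0.33 ± 0.09). Slc37a4, which carries glucose-6-phosphate to glucose-6-phosphatase, fell by 1.16 ± 0.18. The transcription factor gene Cebpa fell by 1.03 ± 0.14, the glucocorticoid receptor gene Nr3c1 by 0.82 ± 0.13 and the glucagon receptor gene Gcgr by 0.61 ± 0.11. Without 1 pool these counts were 4 to 6 falls and 0 or 1 rise.

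In glycogen synthesis and breakdown beyond the 3 genes above, 2 of 13 fell and 1 rose, with a median of -0.09. Of the 27 names in this list, 14 were not tested. Among those were the other targeting subunit genes listed, Ppp1r3a, Ppp1r3c, Ppp1r3d, Ppp1r3e and Ppp1r3g. For this list and those below, the shares of all tested genes were 12.8% called lower and 15.3% higher. The starch-binding protein gene Stbd1, which ties glycogen to membranes, fell by 0.74 ± 0.12, and of the phosphorylase kinase subunits Phkb fell by 0.37 ± 0.10 while Phka2, of the liver alpha subunit, rose by 0.51 ± 0.13. Leaving out the ethanol-fed AM21, the pair-fed AM21 or the pair-fed untreated pool left 1 fall and 0 rises. Of 4 other sugar transporters tested, Slc2a5, the fructose transporter GLUT5, fell by 1.86 ± 0.11 (adjusted p = 0.000703, limma), and the other 3 did not pass. Pyruvate handling had 3 falls and 0 rises among 11, with the pyruvate dehydrogenase kinases Pdk2 (-1.03 ± 0.11) and Pdk1 (-0.71 ± 0.10) and the dehydrogenase subunit Pdhb (-0.35 ± 0.10), and a median of 0.07. In the pentose phosphate pathway 0 of 5 passed (limma; 1 at an unadjusted p under 0.05), with Taldo1, transaldolase, nearest at 0.28 ± 0.11 (adjusted p = 0.0982).

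**Figure D4:**
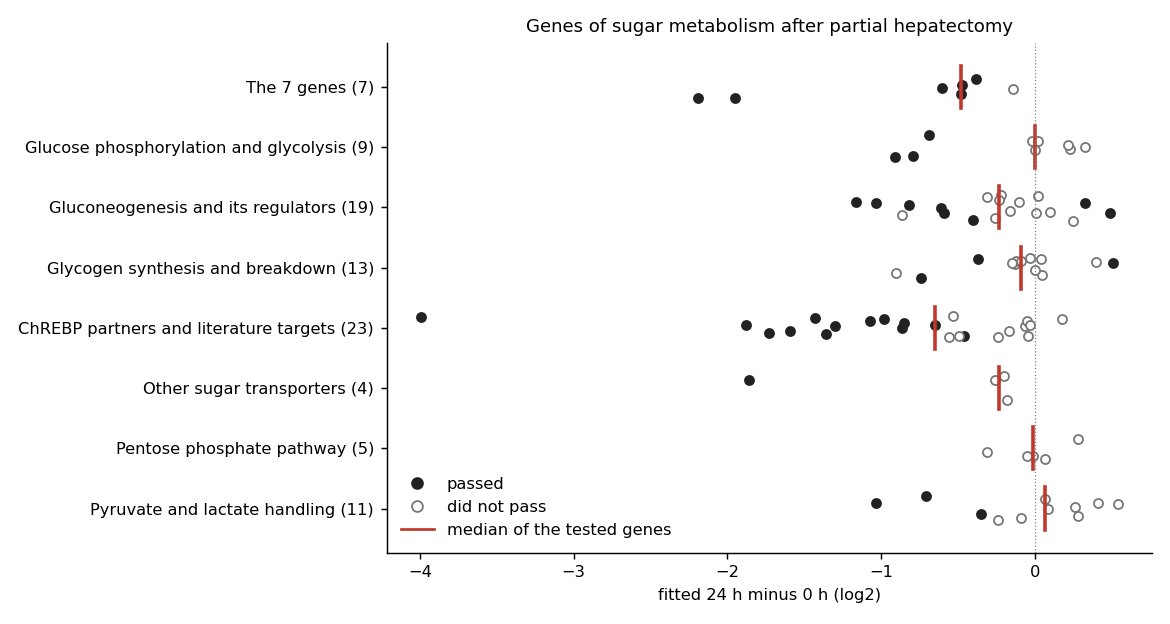
Fitted log2 change from 0 h to 24 h of the 7 genes and of the tested genes in 7 lists of sugar metabolism (number tested in brackets), with filled points for genes that passed and a bar at the median of the tested genes. The ChREBP list has 13 filled points, all below 0, and its median of -0.65 lies left of the -0.48 of the 7 genes.

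The RNA was that of liver: 10 hepatocyte markers, such as Alb and Ttr, averaged 11.54 to 11.60 on the 24 h arrays and 11.59 to 11.64 on the 0 h arrays, and 0 of the 10 passed (limma; 0 at an unadjusted p under 0.05, where 40.8% of tested genes were). For the counts that follow, 12.8% of all tested genes were called lower and 15.3% higher. Of 8 periportal markers 4 fell and 0 rose, with Sds at -1.60 ± 0.32, and their mean level was 8.08 to 8.57 at 24 h against 8.79 to 8.97 at 0 h. Of 7 pericentral markers 2 fell and 1 rose. Of 6 sinusoidal endothelial markers 3 fell and 0 rose, with a mean level of 6.62 to 7.08 at 24 h against 6.96 to 7.43 at 0 h. Both tested lymphocyte markers, Cd4 and Ccl5, fell, but 8 of the 10 names in that list were not tested. Of 12 Kupffer cell and macrophage markers 3 fell and 1 rose, of 8 stellate cell markers 3 fell and 1 rose, and of 2 cholangiocyte markers neither passed. Neutrophil markers rose in 3 of 3 tested genes (S100a8, S100a9 and Lcn2), and the other 4 averaged under 5 and were not tested. The mean level of all 7 was 5.56 to 6.27 at 24 h against 4.58 to 4.65 at 0 h. Of 6 adipocyte markers, which matter because fat cells also make Pck1, Adipoq, Plin1 and Lep averaged under 5, while the other 3 passed in different directions: Fabp4 rose by 1.67 ± 0.29, Cidec fell by 0.55 ± 0.16 and Cfd fell by 0.62 ± 0.11. The list mean was 5.45 to 5.98 at 24 h against 5.55 to 5.59 at 0 h. The part of these markers in the falls of the 7 genes was not tested.

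The same forms were then looked up in the windows of all tested genes, as a description with no test. Of 24 tested genes with the carbohydrate response element form, 2 fell (8.33%, against 12.8% of all) and 6 rose, with a median of 0.15. Of 92 tested genes with TTACGTCA, 7 fell (7.61%) and 19 rose. Of 220 with TGACGTCA, 21 fell (9.55%) and 37 rose, and of 652 with CACGTG, 85 fell (13.0%) and 94 rose. Of all tested genes, 15.3% rose.

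The second comparison was ethanol-fed against pair-fed liver, averaged over treatment and time. None of the 7 genes passed (limma; 2 at an unadjusted p under 0.05, where 15.4% of tested genes were), and 0.46% of all tested genes were called (0.38% higher, 0.0806% lower). Both gluconeogenic enzymes leaned higher in ethanol-fed liver. Pck1 averaged 11.19 ± 0.34 in ethanol-fed and 10.86 ± 0.24 in pair-fed liver (SD, n = 4 arrays each; fitted difference 0.33 ± 0.10, interval 0.10 to 0.55, limma adjusted p = 0.179). Fbp1 averaged 9.80 ± 0.16 in ethanol-fed and 9.48 ± 0.29 in pair-fed liver, with a fitted difference of 0.32 ± 0.09 and an interval of 0.12 to 0.53 (limma adjusted p = 0.159). The ethanol-fed array was the higher one in all 4 pairs for these 2 genes, as it was for 15.0% of tested genes.

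Gys2 averaged 7.85 ± 0.19 in ethanol-fed and 8.28 ± 0.41 in pair-fed liver (SD, n = 4 arrays each; fitted difference -0.43 ± 0.20, limma adjusted p = 0.363). At 0 h it differed by -0.73 in AM21 and -1.02 in untreated rats, and at 24 h by -0.15 and 0.19. With the 0 h arrays alone the difference was -0.88 (limma adjusted p = 0.0527), and with the 24 h arrays alone 0.02. The remaining 4 genes had differences between -0.16 (Pklr) and 0.09, with intervals that together ran from -0.40 to 0.55. In the 7 lists 0 genes passed (limma; at most 4 of a list at an unadjusted p under 0.05), and the smallest p in each belonged to Ldhb (0.33 ± 0.10), Irs2 (0.30 ± 0.09), Ppp1cc (-0.18 ± 0.09), Rgs16 (0.81 ± 0.33), Slc2a5 (-0.39 ± 0.11), Pgls (-0.14 ± 0.08) and Pdk4 (1.04 ± 0.26). Of 12 Kupffer cell and macrophage markers, Marco (0.77 ± 0.10) and Cd5l (0.71 ± 0.09) were higher in ethanol-fed liver, where 0.38% of all tested genes were, and 10 did not pass. All 12 leaned higher at an unadjusted p under 0.05 (limma), where 15.4% of tested genes had such a p in either direction. Their median was 0.48 against 0.01 over all tested genes. The list had a mean level of 7.75 to 7.92 in ethanol-fed and 7.21 to 7.48 in pair-fed liver. Periportal markers had 8.55 to 8.97 in ethanol-fed and 8.08 to 8.89 in pair-fed liver. The part of either list in these differences was not tested.

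The third comparison was AM21 against untreated. None of the 7 genes passed, as for all 8690 tested genes (0.0% called by limma, 538 or 6.19% at an unadjusted p under 0.05, Pklr among them). Pklr came closest: it averaged 8.55 ± 1.15 in AM21 and 8.16 ± 1.12 in untreated liver (SD, n = 4 arrays each). The AM21 array was higher in all 4 pairs, by 0.15 and 0.23 in ethanol-fed liver at 24 h and 0 h and by 0.60 and 0.57 in pair-fed liver. Such a pattern was seen in 4.4% of tested genes. The fitted difference was 0.39 ± 0.10 with an interval from 0.15 to 0.63 (limma adjusted p = 0.691). In the 7 lists 0 genes passed (limma; 2 at an unadjusted p under 0.05, both in the ChREBP list), and the smallest p of the ChREBP list belonged to Thrsp, at 0.47 ± 0.11 (limma adjusted p = 0.691). In the other lists it belonged to Pfkl (-0.20 ± 0.11), Pck2 (-0.24 ± 0.11), Phka1 (-0.21 ± 0.09), Slc2a1 (-0.10 ± 0.12), H6pd (-0.29 ± 0.13) and Pdk4 (0.31 ± 0.26). The other 6 genes differed by -0.07 to 0.10, and Ppp1r3b (-0.44 to 0.49) and Gys2 (-0.53 to 0.40) had the widest intervals. The AM21 and the untreated animals carry separate runs of identifiers. Whether they were also kept or operated on apart is not given in the sources used here, and any such difference could not be told apart from treatment.

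**Figure D5:**
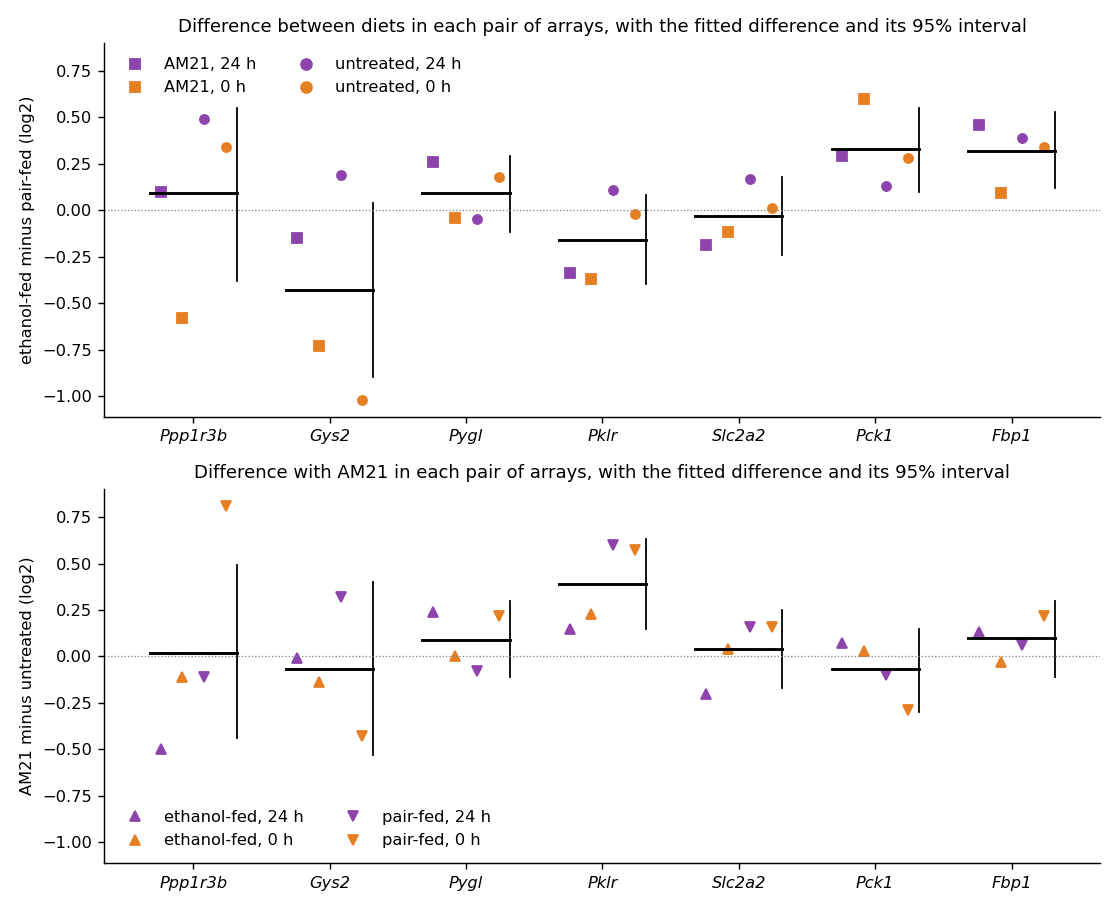
Upper panel, ethanol-fed minus pair-fed log2 level in the 4 pairs of arrays (points), with the limma estimate and its 95% interval. Lower panel, the same for AM21 minus untreated. Pck1 and Fbp1 lie above 0 in all diet pairs and Pklr in all AM21 pairs, while the 0 h points of Gys2 lie far below its 24 h points between the diets.

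The last comparisons asked whether the change after PHx depended on diet or on AM21. None of the 7 genes passed for diet, where 0.529% of tested genes did (0.46% lower and 0.069% higher), and none for AM21, where 0.0% did (limma, 1 residual degree of freedom; at an unadjusted p under 0.05, 10.9% of tested genes for diet and 6.95% for AM21). Gys2 changed by 0.38 and 0.24 in the ethanol-fed AM21 and untreated pools and by -0.21 and -0.97 in the pair-fed AM21 and untreated pools. The difference between the diets was 0.90 ± 0.23 with an interval from 0.38 to 1.42 (unadjusted p = 0.0041, limma adjusted p = 0.164). It passed with an intensity trend in the variance (adjusted p = 0.0255) and the difference was 0.52 without the pair-fed untreated pool. Opposite signs in the pools of the 2 diets were seen in 1 of the 7 genes and in 7.03% of tested genes.

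Ugp2, which makes the UDP-glucose that glycogen synthase uses, had the smallest p of the glycogen list in the same comparison. It changed by -0.25 in both ethanol-fed pools and by -1.25 and -1.84 in the pair-fed AM21 and untreated pools (difference 1.30 ± 0.22, limma adjusted p = 0.0584). At 0 h its ethanol-fed minus pair-fed difference was -0.82 in AM21 and -1.12 in untreated rats, and so below 0 as for Gys2. No gene of the 7 lists passed for either interaction (limma; at an unadjusted p under 0.05, at most 6 of a list for diet and 3 for AM21). In the other lists the smallest p for diet belonged to Ldha (-0.43 ± 0.25), Ppargc1a, a coactivator of gluconeogenic genes (-0.94 ± 0.22), the acetyl-CoA carboxylase gene Acacb (-1.39 ± 0.30), Slc2a9 (0.34 ± 0.21), Rpia (-0.62 ± 0.30) and Pdk4 (-0.56 ± 0.20). The smallest p for AM21 belonged to Ldha (-0.84 ± 0.25), Onecut1 (-1.11 ± 0.44), Ppp1ca (-0.37 ± 0.23), Pnpla3 (-1.77 ± 0.34), Slc2a1 (-0.45 ± 0.20), Rpia (-0.48 ± 0.30) and the lactate transporter gene Slc16a1 (-0.74 ± 0.30). Acacb and Pnpla3 are among the genes in which the pair-fed untreated pool stood apart. The same was seen in Ldha, Onecut1, Slc16a1, Rpia and Ppp1ca, whose change in that pool lay above those in all other pools. In Ldha, Onecut1, Slc16a1 and Rpia the pair-fed AM21 and untreated arrays lay further apart at 0 h than at 24 h. The part of the single pair-fed untreated array at 0 h in these interaction estimates was not tested. For Pklr the difference between the diets was 0.07 ± 0.20, with an interval from -0.38 to 0.53. For AM21 the largest difference in change among the 7 was that of Ppp1r3b, at -0.65 ± 0.22 (limma adjusted p = 0.589), with -2.18 and -2.86 in the AM21 pools and -1.79 and -1.94 in the untreated pools. With 1 array for each group, these interactions were measured with wide intervals, so a difference that did not pass is not shown to be absent.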

How the data were processed

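The values, 1 per probe set and array, were deposited on a log2 scale. Per the submitters' processing notes, the authors used RMA and Affymetrix Expression Console (versions and genome build not given in the sources used here). RMA evens out probe intensities between arrays and can hide any change common to the bulk of genes. Per the labels' protocols, RNA of 3 or 4 animals was pooled, amplified and biotin-labelled. The 8 arrays ran from 0.481 to 13.344 with medians from 4.114 to 4.233, and arrays give no read depth, so their number limits the precision.

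Of 36685 probe sets, 18511 had 1 symbol in the platform table, 575 several and 17599 none; 0 symbols needed an update through the GRCr8 gene table. Genes of mean log2 level at least 5 were fitted with limma 3.58.1 in R 4.3.3, tested on simulated data first. Each gene's variance was moderated towards that of all tested genes. The SE and intervals are therefore not those of its own pools or arrays alone. PHx responses and interactions used the pool as a block, which rests on the animal identifiers. Diet and AM21 effects used an additive fit of the 8 arrays, since the correlation within pools was estimated at -0.371 and set to 0. These p-values treat the 8 arrays as independent, although the 0 h and 24 h arrays of a pool come from the same animals. The spread behind them mixes differences within and between pools and does not measure that between single animals.

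The members and lists were chosen with earlier results of these data known. Text names all members, up to 4 passing genes of each list and comparison by p (otherwise the gene of smallest p), and the 5 genes most correlated with Pklr. That last rule also covered Mlxipl and G6pc1, which had no value. Promoter sequences are from RefSeq. Alternatives covered filters, variance models, normalization, probe set choice, blocks and left-out arrays.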

Additional observations from a re-analysis of the deposited data

Results flagged for a closer look

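One pattern drew a closer look. In Gys2 the change after PHx ran in opposite directions in the pools of the 2 diets: it was 0.38 and 0.24 in the ethanol-fed pools and -0.21 and -0.97 in the pair-fed pools. The difference of 0.90 was tested as an interaction and did not pass (limma adjusted p = 0.164). None of the 21 sets of 4 arrays or 4 pool changes held a value far from the rest by Dixon's test.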

How the results depend on the processing

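The 6 falls after PHx kept their sign in all 96 alternative values, and 76 of these passed. Pklr and Ppp1r3b passed in each of their 16. The count of 6 falling genes was 5 with no level filter and with the ethanol-fed pools alone, and 4 to 5 without 1 pool. It was 2 with the pair-fed, the untreated or the AM21 pools alone, fits of 4 arrays with 1 residual degree of freedom. With no replicate block it was 6. The 29 results that did not pass changed sign in 32 of 429 alternative values, and 1 value passed: Gys2 for PHx by diet with an intensity trend, which makes that count 1 against 0. Over all genes, called counts were 2443 for PHx (726 with AM21 pools alone, 776 untreated, 1000 pair-fed, 1466 and 1566 without 1 ethanol-fed pool, 1628 without the pair-fed AM21 pool). They were 40 for diet (0 to 285), 0 for AM21 (8 with all 2-way interactions), 46 for PHx by diet (0 to 226) and 0 for PHx by AM21 (51 with an intensity trend). Without a pool, both interactions together left no residual degrees of freedom, so the diet one was fitted alone, and PHx by AM21 was not run without a pool. Causes were not tested.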
